A study of Mus musculus with 7 samples.

Results

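The subunits of the mitochondrial respiratory chain and of the ATP synthase were examined in mouse leukemia stem cells exposed to the small molecule BRD7116. Members were the genes whose symbol in the array platform's annotation begins with Nduf, Uqcr or Atp5, or with Cox and a digit from 4 to 8, together with Sdhb, Sdhc, Sdhd, Cyc1 and Cycs. Sdha was not analysed here. The rule found 110 probes of 87 genes, among 16593 genes with a symbol on the array. Of these 87 genes, 79 encode subunits of complexes I to V, 1 encodes cytochrome c, 6 encode assembly factors and 1 is a pseudogene, Ndufs5-ps.

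Freshly isolated cells, named LSCe in the labels and given there as leukemia stem cells, were kept in suspension culture for 6 h. In 5 samples the medium held 5 µM BRD7116 in 0.2% DMSO, and in 2 samples it held 0.2% DMSO alone. By its title, the series concerns a screen for small molecules that inhibit such cells. Total RNA was measured on MouseRef-8 BeadChips, 1 array a sample. Nothing in the labels says whether the samples of a group came from separate mice or cultures, so each p-value reflects only how far these samples scatter, and that scatter may be technical. In such bulk RNA, fewer cells of a type and less RNA per cell cannot be told apart.

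The respiratory chain passes electrons from NADH (complex I) or succinate (complex II) to ubiquinone, on through complex III and cytochrome c to complex IV, where oxygen is reduced. Complexes I, III and IV pump protons across the inner mitochondrial membrane, and the ATP synthase (complex V) uses their return to make ATP. Stem cells of human acute myeloid leukemia are known to rely on this machinery. The genes encoded by mitochondrial DNA lie outside the rule, so all members are nuclear genes.

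The 7 arrays lay on 3 chips. BRD7116 replicate 1 shared chip 1 with DMSO replicate 2, BRD7116 replicate 2 shared chip 2 with DMSO replicate 1, and the other 3 treated samples were on chip 3. Chip 1 was dim. Its arrays reached highest intensities of 4515 (BRD7116) and 4704 (DMSO), while those of the other chips reached 27582 to 39654. Of the 110 member probes, 66, 79, 79, 76 and 82 were detected (detection p under 0.05) in BRD7116 replicates 1 to 5, against 79 and 61 in DMSO replicates 1 and 2. The 2 arrays of chip 1 therefore detected the fewest members in their groups. Values below are log2 levels after background correction and quantile normalization over all 7 arrays, and each p is from limma. A gene was called measured when a probe of it was detected on at least 2 arrays, and its brightest probe stood for it. As a check of the label, 8 of the 13 myeloid leukemia markers with a probe were detected on all 7 arrays (Mpo, Elane, Prtn3, Ctsg, Meis1, Hoxa9, Mef2c and Fcgr3), while Hoxa10, Cd34 and Flt3 were detected on none. Cd3d, Cd3e and Cd3g of T cells were detected on no array. Marker lists of B cells, macrophages, stroma and megakaryocytes each had 1 gene detected on at least 2 arrays and 0 on all 7. Of 6 red cell precursor markers with a probe, Hba-a1 and Tfrc were detected on all 7 and Alas2, Klf1 and Epor on none. Of 5 mature granulocyte markers, 4 were detected on at least 2 arrays, with Ltf on all 7.

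Most subunit transcripts could be followed closely. Of the 79 subunit genes, 62 were measured: 26 of 33 in complex I, 2 of 3 in complex II, 7 of 9 in complex III, 13 of 18 in complex IV and 14 of 16 in the ATP synthase. Of those 62, 52 were detected on all 7 arrays. The 17 subunits without a measurement were Ndufab1, Ndufb2, Ndufb4, Ndufb9, Ndufb10, Ndufb11 and Ndufs1 of complex I, Sdhd of complex II, Uqcrfs1 and Uqcrq of complex III, Cox4i2, Cox7b, Cox7b2, Cox8b and Cox8c of complex IV, and Atp5e and Atp5k of the ATP synthase. Cytochrome c itself, Cycs, had 2 probes that were detected on no array, so the carrier between complexes III and IV was not measured. All 6 assembly factors and the pseudogene were measured.

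No subunit passed an adjusted p of 0.05 (limma, Benjamini-Hochberg over 6969 features), and the same held for the array, with 0 (0%) of all features called. Without adjustment, 2 of the 62 subunits (3.23%) had a p under 0.05, against 493 of all features (7.07%). Both had the higher mean with BRD7116, a direction that 3.37% of all features showed with such a p, and 3.70% of all features showed the other. The 5 treated arrays lay wholly above or below both DMSO arrays for 5 of the 62 (8.06%), against 11.1% of all features. In 3 of these 5 subunits the treated arrays were the higher (5.75% of all features) and in 2 the lower (5.40% of all features). These shares are near or under the background, and they single out no subunit.

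The differences were also small. The 62 log2 fold changes (BRD7116 over DMSO) ran between -0.38 and 1.28, with a median of 0.090, against a median of 0.046 over all features. A higher mean with BRD7116 was found for 38 subunits and a lower one for 24, so that 61.3% were higher, against 55.2% of all features. Among features detected on all 7 arrays, 57.7% of 52 subunits were higher (median 0.053), against 45.9% of all (median -0.026). For 51 of the 62 (82.3%) the 95% interval of the difference stayed within 2-fold in both directions, against 57.5% of all features. Among features detected on all 7 arrays the shares were 92.3% of 52 subunits and 85.3% of all. The median half-width of that interval was 0.45 for the subunits and 0.62 for all features. For most subunits the interval thus left out a 2-fold difference, while smaller ones could lie inside it. The residual SD between arrays of a group had a median of 0.19 for the subunits and 0.33 for all features. Among features detected on all 7 arrays, it was 0.16 for the subunits and 0.21 for all. There the half-widths were 0.43 and 0.48. Scaling bears on the median: with arrays brought to a common median in place of quantile normalization, 52 of the 62 subunits (83.9%) lay above the median of all features, against 35 (56.5%) as analysed here, and that median was itself shifted to 0.54.

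**Figure D1:**
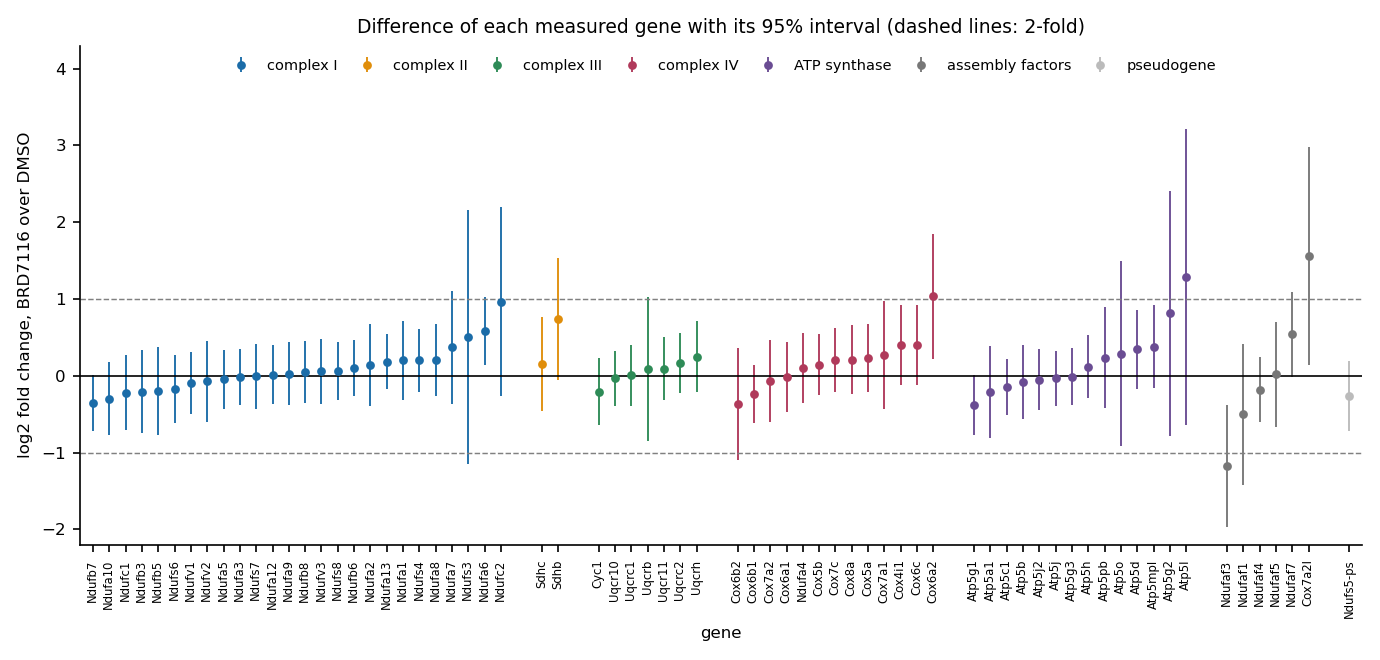
Log2 fold change of each of the 69 measured genes (BRD7116 over DMSO, vertical axis) by complex, points with 95% intervals from limma and dashed lines at a 2-fold difference either way. Most points of complexes I, III, IV and V sit close to 0 with intervals inside the dashed lines, and the long intervals belong to genes such as Atp5l, Ndufs3 and Cox7a2l.

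By complex, the median difference was 0.038 in complex I (15 higher, 11 lower), 0.089 in complex III (5 higher, 2 lower), 0.20 in complex IV (9 higher, 4 lower) and 0.055 in the ATP synthase (7 higher, 7 lower). Complex II had 2 measured subunits, Sdhb and Sdhc, both with the higher mean, and a median of 0.44. For each array, the median deviation of the 62 subunits from their own means was -0.038, 0.023, 0.040, 0.030 and 0.056 in BRD7116 replicates 1 to 5, against -0.0020 and -0.078 in DMSO replicates 1 and 2. The groups overlapped, because DMSO replicate 1 lay above BRD7116 replicate 1. The lowest array of each group was the one on chip 1. This was also so over all features, with -0.0775 in BRD7116 replicate 1 and -0.0949 in DMSO replicate 2. Among all features detected on all 7 arrays, these 2 arrays were instead the highest of their groups, at 0.0435 and 0.0378. For the subunits detected on all 7 arrays they were the lowest, at -0.0252 and -0.040. In complex IV the same medians were -0.026, 0.041, 0.083, 0.032 and 0.044 with BRD7116, against 0.024 and -0.18 with DMSO, so that the low DMSO value again came from chip 1. Whether the dimness of that chip had a part in this was not tested. Without chip 1 (4 BRD7116 arrays and 1 DMSO array) the median of the subunits was 0.010, that of complex IV 0.061, that of complex III -0.042, that of complex II -0.015 and that of the ATP synthase -0.034.

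**Figure D2:**
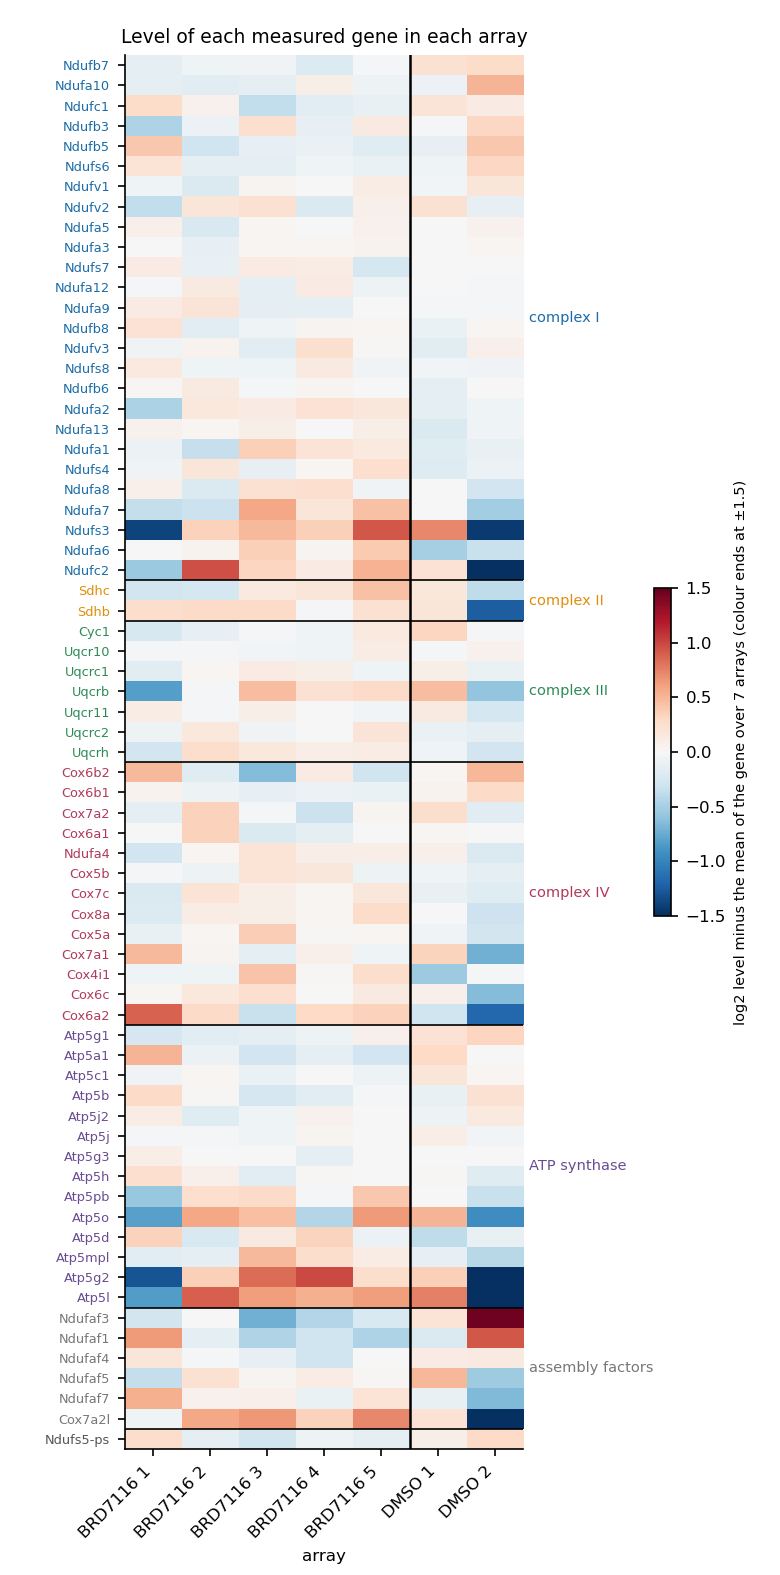
Log2 level of each measured gene in each array minus the gene's mean over 7 arrays (colour), with the 5 BRD7116 arrays left and the 2 DMSO arrays right of the vertical line, and genes ordered by complex and then by fold change. DMSO 2, from chip 1, is far below the gene's mean for Atp5l, Cox7a2l, Ndufc2, Atp5g2 and Ndufs3, and BRD7116 1, from the same chip, for Atp5g2 and Ndufs3.

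In complex I, which takes electrons from NADH, the clearest difference was that of Ndufa6, an accessory subunit of the arm in the matrix that binds the mitochondrial acyl carrier protein. Its log2 level was 9.0, 9.06, 9.36, 9.05 and 9.41 in the 5 BRD7116 arrays, against 8.51 and 8.67 in the DMSO arrays. All 5 treated arrays lay above both controls. The log2 fold change was 0.59 ± 0.19 (SE, n = 5 and 2), a 1.5-fold higher level, with an unadjusted p of 0.0155 from limma and an adjusted p of 0.658. Within chip 1 the difference was 0.33 and within chip 2 it was 0.56. Leaving out each array in turn gave 0.51 to 0.67. The promoter of Ndufa6, shown because this was the subunit with the smallest unadjusted p, lies at chr15:82354242-82354541 on the minus strand of GRCm38.p6 (RefSeq), from 250 bases before to 50 bases after the start. Capitals mark a match to the letters of the NRF1 motif, which begins 24 bases into the transcript.

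Ndufa6: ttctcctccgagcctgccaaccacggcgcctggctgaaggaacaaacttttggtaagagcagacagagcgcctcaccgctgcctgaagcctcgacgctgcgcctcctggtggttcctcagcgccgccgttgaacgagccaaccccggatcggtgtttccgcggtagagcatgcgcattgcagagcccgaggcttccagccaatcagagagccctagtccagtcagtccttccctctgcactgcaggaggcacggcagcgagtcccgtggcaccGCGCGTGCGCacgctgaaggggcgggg

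Ndufb7, an accessory subunit of the membrane arm, differed in the opposite direction. It measured 6.18, 6.26, 6.27, 6.13 and 6.29 with BRD7116, against 6.55 and 6.6 with DMSO. All 5 treated arrays lay below both controls, and they lay close together. This gave a log2 fold change of -0.35 ± 0.16 (SE), with an unadjusted p of 0.0555 from limma and an adjusted p of 0.658. It was -0.42 within chip 1, -0.29 within chip 2 and -0.10 in the values as the authors normalized them, which were not background-corrected.

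The most abundant probes of complex I stayed close to the controls. Ndufs6, an accessory subunit of the matrix arm, averaged 11.2 ± 0.15 with BRD7116 and 11.4 ± 0.26 with DMSO (SD, n = 5 and 2). Ndufa13, also known as GRIM-19, averaged 10.8 ± 0.043 with BRD7116 and 10.7 ± 0.12 with DMSO, and all 5 treated arrays lay above both controls by a small margin (log2 fold change 0.18 ± 0.16, SE). Ndufb8 of the membrane arm averaged 10.4 ± 0.14 with BRD7116 and 10.4 ± 0.084 with DMSO. The 5 measured core subunits, 4 of which hold the flavin or iron-sulfur clusters of the electron path, had a median log2 fold change of -0.0058 and a range up to 0.50. Among them Ndufv1, which binds NADH, had 9.47, 9.32, 9.59, 9.54 and 9.66 with BRD7116, against 9.50 and 9.72 with DMSO, so the groups overlapped. The 21 measured accessory subunits had a median of 0.048.

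The largest log2 fold change in complex I belonged to Ndufc2, an accessory subunit of the membrane arm, and its size depended on 1 control array. Ndufc2 measured 8.16, 9.68, 9.03, 8.84 and 9.24 with BRD7116, against 8.93 and 7.11 with DMSO. The groups overlapped, and the low value was DMSO replicate 2 on the dim chip. The log2 fold change of 0.97 ± 0.53 (SE) came to 0.056 without that array. It was 1.05 within chip 1 and 0.75 within chip 2, whose treated array had the highest value, 9.68. Ndufs3, a core subunit of the matrix arm, had 5.05, 6.78, 6.93, 6.80 and 7.37 with BRD7116, against 7.16 and 5.01 with DMSO, so that both low values were those of chip 1. Ndufv1, Ndufc2 and Ndufs3 were chosen after their values were seen.

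In complex II, which oxidises succinate and also belongs to the citric acid cycle, the iron-sulfur subunit Sdhb measured 6.6, 6.62, 6.63, 6.32 and 6.56 with BRD7116, against 6.52 and 5.10 with DMSO. The treated arrays and DMSO replicate 1 lay together, and DMSO replicate 2 alone was low. Detection held in all 5 treated arrays and in 1 of 2 controls. Over all arrays its log2 fold change was 0.74 ± 0.34 (SE), with 1.47 without DMSO replicate 1 and 0.029 without DMSO replicate 2. A further measured probe of Sdhb gave 0.34. The membrane anchor Sdhc had 7.68, 7.69, 8.11, 8.14 and 8.40 with BRD7116, against 8.13 and 7.58 with DMSO. These groups overlapped, and the log2 fold change was 0.15 ± 0.26 (SE).

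In complex III, which hands electrons from ubiquinone to cytochrome c, the core protein Uqcrc2 measured 10.56, 10.80, 10.60, 10.65 and 10.84 with BRD7116, against 10.54 and 10.51 with DMSO. All treated arrays lay above both controls, though the lowest of them and the higher control nearly met. Its log2 fold change was 0.17 ± 0.17 (SE). Cyc1, the haem-bearing cytochrome c1, averaged 8.5 ± 0.14 with BRD7116 and 8.70 ± 0.25 with DMSO (SD), with overlapping groups. The hinge protein Uqcrh averaged 10.4 ± 0.21 with BRD7116 and 10.1 ± 0.16 with DMSO. The small subunit Uqcr10 averaged 11.6 ± 0.067 with BRD7116 and 11.6 ± 0.056 with DMSO, and 2 of its probes gave log2 fold changes of -0.20 and -0.032. With arrays scaled to a common median, Cyc1 and Uqcr10 came out above the median of all features, by 0.073 and 0.16.

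In complex IV, which reduces oxygen, 10 of the 11 subunits in general use were measured and had a median log2 fold change of 0.17. Of 7 isoforms known from particular tissues 3 were measured, with a median of 0.27, and only 1 of the 3 was detected on all 7 arrays. Without chip 1 the 3 values were 0.45 (Cox6a2), -0.28 (Cox6b2) and -0.36 (Cox7a1). Cox6a2, the isoform of heart and skeletal muscle, measured 7.71, 7.11, 6.49, 7.12 and 7.17 with BRD7116, against 6.52 and 5.65 with DMSO. Only BRD7116 replicate 3 lay below the higher control. The probe was detected in all 5 treated arrays and in 1 of 2 controls. The log2 fold change was 1.04 ± 0.35 (SE), with an unadjusted p of 0.0189 from limma and an adjusted p of 0.658. It was 2.07 within chip 1, 0.59 within chip 2 and 0.62 without DMSO replicate 2, so that 1 control array moved it by more than 1.5 times.

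The liver-type isoform, Cox6a1, averaged 11.4 ± 0.22 with BRD7116 and 11.4 ± 0.018 with DMSO (SD), with a log2 fold change of -0.016 ± 0.20 (SE). Cox6b1, which faces the intermembrane space, had 11.92, 11.79, 11.74, 11.78 and 11.76 with BRD7116, against 11.92 and 12.16 with DMSO. Its groups met at 11.92, and its log2 fold change of -0.24 ± 0.16 (SE) turned to 0.040 above the median of all features with median scaling. Cox5b averaged 11.0 ± 0.14 with BRD7116 and 10.8 ± 0.058 with DMSO. Cox6c measured 7.67, 7.80, 7.90, 7.65 and 7.78 with BRD7116, against 7.72 and 6.99 with DMSO, and its log2 fold change of 0.40 ± 0.22 (SE) was 0.038 without DMSO replicate 2.

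The ATP synthase gave a comparison within 1 subunit. Atp5g1, Atp5g2 and Atp5g3 encode the same mature c subunit, the proteolipid of the proton-driven ring, with different targeting sequences. Atp5g1 measured 9.75, 9.84, 9.87, 9.92 and 10.08 with BRD7116, against 10.22 and 10.33 with DMSO. All 5 treated arrays lay below both controls. The log2 fold change was -0.38 ± 0.17 (SE), a level of 0.768 times the control, with an unadjusted p of 0.0542 from limma and an adjusted p of 0.658. It was -0.57 within chip 1, -0.38 within chip 2, -0.28 in the authors' normalized values, and -0.44 to -0.33 with each array left out in turn.

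Atp5g3, in contrast, measured 12.40, 12.31, 12.31, 12.16 and 12.31 with BRD7116, against 12.31 and 12.31 with DMSO. Its groups overlapped fully, and the log2 fold change was -0.010 ± 0.16 (SE). Quantile normalization gives bright probes of equal rank the same value, which is why 5 of these 7 values are equal. Atp5g2 had 5.02, 6.68, 7.16, 7.31 and 6.58 with BRD7116, against 6.68 and 4.80 with DMSO, and both low values were those of chip 1. Its log2 fold change was 0.81 ± 0.69 (SE) over all arrays and -0.14 without DMSO replicate 2. The difference between the 3 fold changes was not tested. Atp5g2 was named for its place beside the other two and not by the rule for named genes.

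The promoters of the 3 genes are shown because they drive 1 protein and gave different values. They are RefSeq sequences on the minus strand of GRCm38.p6, at chr11:96075582-96075881 for Atp5g1, chr15:102670998-102671297 for Atp5g2 and chr2:73911277-73911576 for Atp5g3. Capitals mark motif letters. Atp5g1 held no match to the 4 motifs searched, Atp5g2 held an NRF1 match that begins 42 bases before the start, and Atp5g3 held an ERRalpha match 52 bases before the start and an NRF1 match 13 bases into the transcript.
Atp5g1: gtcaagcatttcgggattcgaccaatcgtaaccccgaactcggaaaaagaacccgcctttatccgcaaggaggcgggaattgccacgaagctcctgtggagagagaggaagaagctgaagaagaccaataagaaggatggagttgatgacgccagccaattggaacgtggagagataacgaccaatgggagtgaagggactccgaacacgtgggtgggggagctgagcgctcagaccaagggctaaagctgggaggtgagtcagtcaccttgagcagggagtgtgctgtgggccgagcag
Atp5g2: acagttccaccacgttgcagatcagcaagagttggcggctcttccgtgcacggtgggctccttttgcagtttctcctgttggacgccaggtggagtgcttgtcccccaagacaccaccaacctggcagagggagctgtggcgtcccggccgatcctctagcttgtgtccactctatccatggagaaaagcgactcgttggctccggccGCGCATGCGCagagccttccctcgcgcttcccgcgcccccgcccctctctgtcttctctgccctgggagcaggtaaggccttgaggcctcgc
Atp5g3: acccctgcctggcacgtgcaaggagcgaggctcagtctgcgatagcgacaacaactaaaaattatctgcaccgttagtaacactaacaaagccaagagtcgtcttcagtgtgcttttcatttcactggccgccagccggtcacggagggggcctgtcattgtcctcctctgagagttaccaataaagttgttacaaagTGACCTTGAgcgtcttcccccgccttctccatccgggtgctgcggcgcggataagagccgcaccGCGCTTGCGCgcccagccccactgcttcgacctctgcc

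Over the members, 71 genes had a RefSeq promoter of this length. The motifs were searched on both strands as GCGCA, any 1 base and GCGC for NRF1, CCGGAAGT for ETS factors, AAGATGGC for YY1 and TCAAGGTCA for ERRalpha. NRF1 letters were found in 16 members (22.5%), against 5.19% of all 27025 genes with a promoter and 12.34% of the 5341 measured ones. The YY1 letters were found in 10 members (14.1%), against 3.19% of all and 5.92% of the measured genes. The ETS letters were in 5 members (7.0%), against 4.31% of all and 10.17% of the measured genes, and the ERRalpha letters in 2 members (2.8%), Atp5g3 and Sdhd, against 0.47% of all and 0.37% of the measured genes. The 11 measured subunits with the NRF1 letters had a median log2 fold change of 0.0046, against 0.057 for the 41 without them. For the ETS letters the medians were 0.21 in 5 subunits with them and 0.017 in 47 without, and for the YY1 letters -0.011 in 10 with them and 0.095 in 42 without. The differences between these medians were not tested. A match describes the letters in this window and is not a site of binding.

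Elsewhere in the ATP synthase the catalytic beta subunit, Atp5b, measured 13.62, 13.35, 13.08, 13.17 and 13.31 with BRD7116, against 13.22 and 13.56 with DMSO. The groups overlapped, with the highest value of each on chip 1, and the log2 fold change was -0.083 ± 0.21 (SE). It was 0.097 with chip as a block and 0.23 above the median of all features with median scaling, so its sign was not settled. The 4 measured subunits of the catalytic head and central stalk (F1) had a median of -0.11. The 7 of the peripheral stalk and membrane part had a median of 0.24. Of these, 3 of the 4 and 5 of the 7 were detected on all 7 arrays. Without chip 1 the 4 ran between -0.51 and 0.42 and the 7 between -0.20 and 0.30. The difference between the 2 medians was not tested. Coupling factor 6, Atp5j, averaged 11.3 ± 0.038 with BRD7116 and 11.3 ± 0.099 with DMSO (SD), and the f subunit Atp5j2 averaged 11.6 ± 0.12 with BRD7116 and 11.7 ± 0.16 with DMSO. Atp5mpl, a small membrane protein of the complex, averaged 10.7 ± 0.28 with BRD7116 and 10.3 ± 0.20 with DMSO.

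The largest difference among the subunits was that of Atp5l, the g subunit of the membrane part, and it rested on 1 control. Atp5l measured 6.94, 8.67, 8.40, 8.32 and 8.41 with BRD7116, against 8.54 and 5.19 with DMSO. DMSO replicate 1 lay among the treated arrays, and the lowest value of each group was on chip 1. Detection held in all 5 treated arrays and in 1 of 2 controls. Over all arrays the log2 fold change was 1.28 ± 0.83 (SE), and it was 1.75 within chip 1, 0.13 within chip 2 and -0.39 without DMSO replicate 2. Atp5l was chosen after its values were seen.

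**Figure D3:**
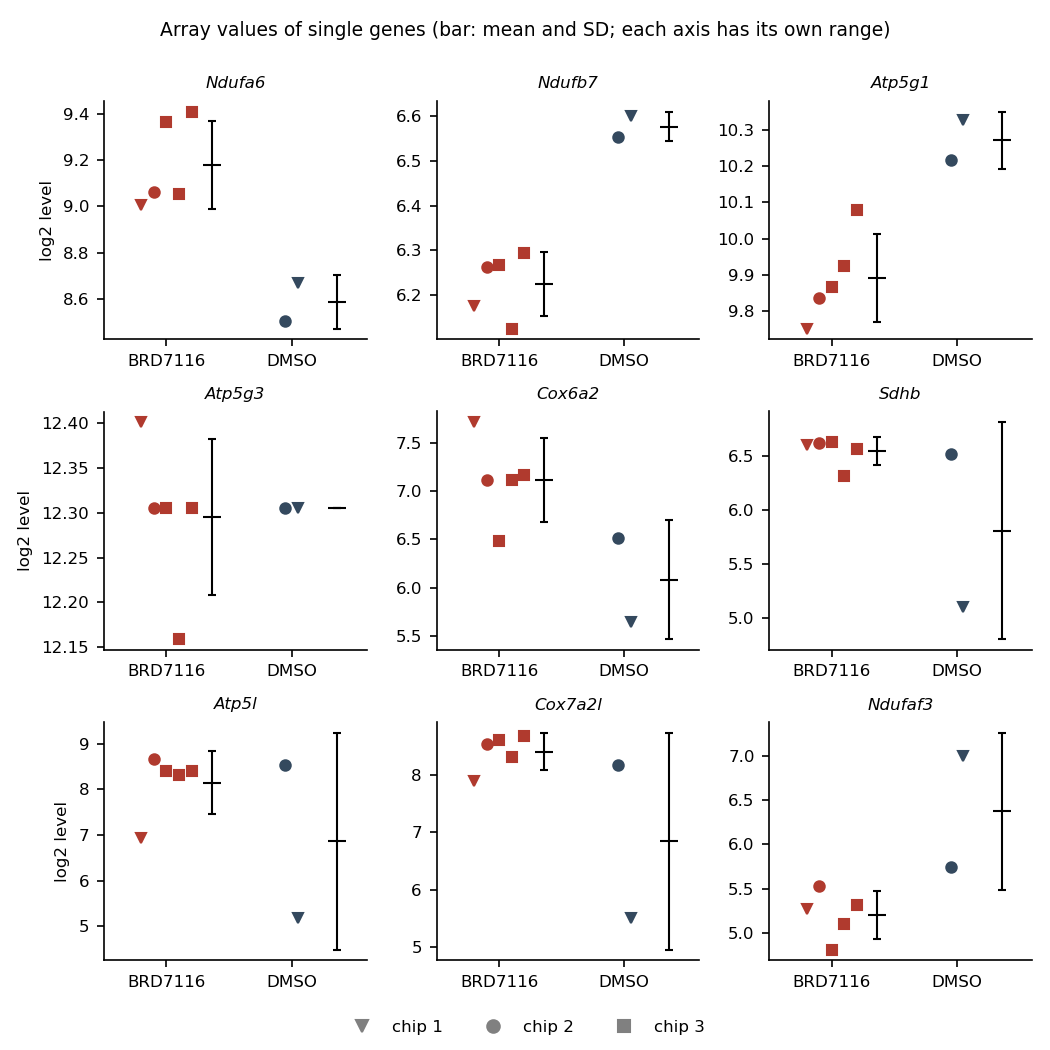
Log2 levels of 9 genes in each array, with the 5 BRD7116 arrays left and the 2 DMSO arrays right in each panel, symbols by chip, and mean and SD beside the points. Ndufa6, Ndufb7 and Atp5g1 separate the groups on chips 1 and 2, the chips that held both, while for Sdhb, Atp5l and Cox7a2l DMSO replicate 2 (chip 1) lies far below DMSO replicate 1.

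The 6 assembly factors, which build the complexes and are mostly no lasting part of them, spread more widely than the subunits. Their log2 fold changes lay between -1.17 and 1.56, with a median of -0.080. Only 2 of the 6 were detected on all 7 arrays, against 52 of the 62 subunits. The median half-width of the interval was 0.74 for the 6 and 0.87 for the 10 subunits not detected on all 7 arrays. Whether detection had a part in the wider spread was not tested. Ndufaf3 acts early in the assembly of complex I. It measured 5.26, 5.53, 4.81, 5.10 and 5.31 with BRD7116, against 5.74 and 7.0 with DMSO, and all treated arrays lay below both controls. The probe was detected in 2 of 5 treated arrays and in both controls. The log2 fold change was -1.17 ± 0.34 (SE), with an unadjusted p of 0.00955 from limma and an adjusted p of 0.658. It was -1.73 within chip 1, -0.22 within chip 2 and -0.58 without DMSO replicate 2, which moved it by more than 1.5 times.

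Cox7a2l, a factor that joins complexes III and IV into supercomplexes, measured 7.89, 8.54, 8.61, 8.31 and 8.67 with BRD7116, against 8.18 and 5.51 with DMSO. DMSO replicate 1 lay inside the range of the treated arrays, and the probe was detected in 1 of 2 controls. Its log2 fold change was 1.56 ± 0.61 (SE) over all arrays and 0.22 without DMSO replicate 2. Ndufaf7, which methylates a core subunit of complex I, measured 6.55, 6.08, 6.09, 5.92 and 6.23 with BRD7116, against 5.91 and 5.36 with DMSO, and the groups did not overlap, though the lowest treated array and the higher control nearly met. Cox7a2l and Ndufaf7 were chosen after their values were seen. Counted with the assembly factors and the pseudogene, 4 of the 69 measured members (5.80%) had an unadjusted p under 0.05 and 7 (10.1%) did not overlap between groups, beside the 7.07% and 11.1% of all features given above.

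The number of calls depended on which control array was kept. Without DMSO replicate 1, so that the dim DMSO replicate 2 stood alone, 610 of 6770 features (9.01%) passed an adjusted p of 0.05 (limma, Benjamini-Hochberg), 4.05% with the higher mean and 4.96% with the lower. Of the 69 members 4 (5.80%) did: Atp5l, Cox7a2l and Sdhb with a higher mean and Ndufaf3 with a lower one. With a lone control that array is assumed to vary like the treated ones. The probes of Atp5l, Cox7a2l and Sdhb were each detected in only 1 of the 2 controls. Their values in DMSO replicate 2, 5.19, 5.51 and 5.10, were the lower of the 2 and lay near background. Without DMSO replicate 2, 0 of 6776 features passed, and 120 had an unadjusted p under 0.05. That array also moved smaller differences: without it the log2 fold change was 0.14 for Uqcrh, 0.24 for Atp5mpl and -0.12 for Cox6b1, against 0.25, 0.38 and -0.24 with it. For Cyc1 it was -0.033 without DMSO replicate 1, against -0.21 with all arrays.

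Chips 1 and 2 each held 1 array of either group and shared no array, which gave 2 separate looks at each difference. Of the 62 subunits 38 (61.3%) had the same sign in both chips, against 53.1% of all features. The median difference of the subunits was 0.039 within chip 1 and -0.029 within chip 2. In 5 subunits the difference was over 0.25 with the same sign in both chips, namely Ndufa6, Ndufc2, Cox6a2, Ndufb7 and Atp5g1. They were 8.06% of the subunits, against 14.66% of all features. Across the 62 genes the differences of the chips had a Pearson correlation of 0.312, against 0.074 across all features, where all arrays share the normalization. Of the 62 subunits 52 were detected on all 7 arrays, against 2714 of all 6969 features. The same-sign share and the correlation were not computed among features detected on all 7 arrays.

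**Figure D4:**
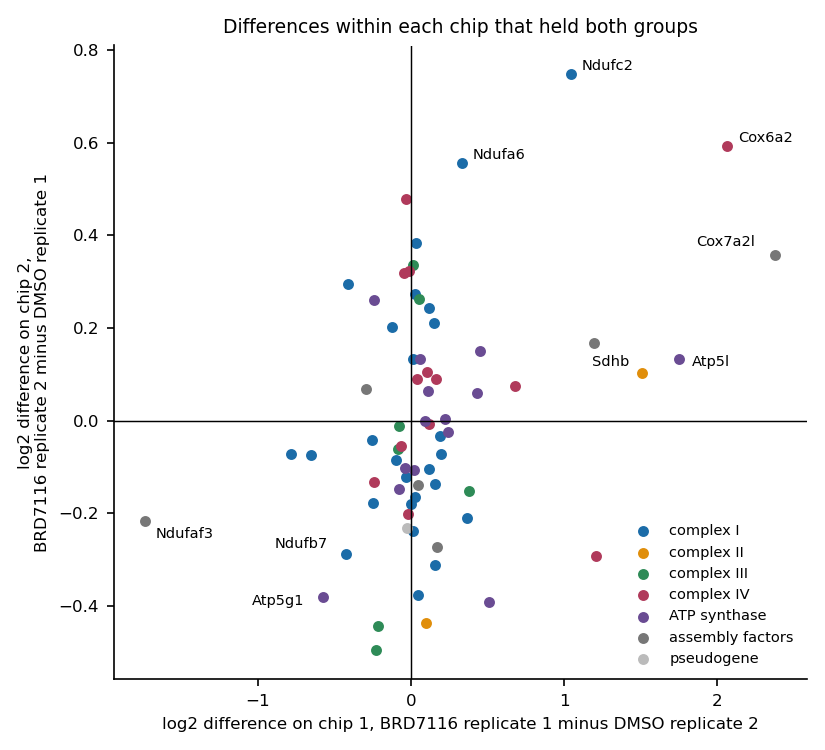
Log2 difference within chip 1 (BRD7116 replicate 1 minus DMSO replicate 2, horizontal axis) against that within chip 2 (BRD7116 replicate 2 minus DMSO replicate 1, vertical axis), 1 point for each of the 69 measured genes, coloured by complex. Ndufa6, Ndufc2, Cox6a2 and Cox7a2l lie in the upper right and Atp5g1, Ndufb7 and Ndufaf3 in the lower left, while the values on chip 1 reach further than those on chip 2.

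Several genes had more than 1 measured probe, and these did not always give 1 sign. Among 9 such genes, the signs differed in 5: Atp5j (-0.035 and 0.48), Cox6a1 (-0.016 and 0.088), Cox6b1 (-0.24 and 0.12), Ndufc1 (-0.22 and 0.024) and Ndufv3 (-0.0079 and 0.057). The 4 probes of Ndufs4, an accessory subunit of the matrix arm chosen for their number, gave 0.20 to 0.82. Which transcripts or gene copies each probe detects was not checked.

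The wider pathway was bounded less closely than the subunits. In 5 further lists, the interval of the difference stayed within 2-fold both ways for 42.9% to 70.6% of the measured genes. The share was 82.3% for the subunits and 57.5% for all features. The lists were also detected less fully. In the order below, 11 of 26, 7 of 14, 3 of 11, 11 of 17 and 3 of 7 genes were detected on all 7 arrays. For the subunits it was 52 of 62. Among all features detected on all 7 arrays the share within 2-fold was 85.3%, and the lists were not compared at equal detection. None of these lists held a gene past an adjusted p of 0.05 (limma, Benjamini-Hochberg over all features) over all 7 arrays. No feature of the array did either, so this could not show that the lists were flat. Without DMSO replicate 1, 5 of their 75 measured genes (6.67%) passed, against 9.01% of all features. These were Coa4 and Gpx4, and, outside the rule for named genes, Cox11, Polg and Slc25a3. Among 26 measured assembly factors outside the rule, 19 had the higher mean and 7 the lower, with a median of 0.14. An unadjusted p under 0.05 (limma) was found for 4 of them (15.4%, against 7.07% of all features). They were Coa4, Sdhaf2 and, outside the rule for named genes, Bcs1l and Sdhaf1. Sdhaf2 and Sdhaf1 were detected in 5 and 3 treated arrays and in 0 controls. These 2 thus passed the detection filter only through the treated arrays, where they were higher. Bcs1l was detected in 4 treated arrays and 1 control. Coa4, an assembly factor of complex IV, measured 7.85, 7.57, 7.85, 8.17 and 8.08 with BRD7116, against 7.19 and 6.40 with DMSO. All treated arrays lay above both controls, and the log2 fold change was 1.11 ± 0.26 (SE), with an unadjusted p of 0.00318 and an adjusted p of 0.658. It was 0.72 without DMSO replicate 2 and 0.38 within chip 2. Sdhaf2, which attaches the flavin of complex II, was not well above background in either control and was at least 1.14-fold higher with BRD7116 (adjusted p 0.658, limma).

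Among 14 measured genes of pyruvate dehydrogenase and the citric acid cycle, 10 had the higher mean and 4 the lower, with a median of 0.20 and no unadjusted p under 0.05. Idh3b, a subunit of NAD-dependent isocitrate dehydrogenase, averaged a log2 fold change of 0.41 ± 0.19 (SE), and fumarate hydratase, Fh1, one of 0.47 ± 0.26. Without DMSO replicate 2 they were 0.16 and 0.24, and Fh1 was -0.098 within chip 2. Among 11 regulators of mitochondrial gene expression 7 had the higher mean and 4 the lower (median 0.17). The mitochondrial RNA polymerase Polrmt measured 7.28, 7.55, 7.68, 7.68 and 7.81 with BRD7116, against 7.85 and 8.20 with DMSO, all treated arrays lying below both controls (log2 fold change -0.42 ± 0.21, SE, and -0.25 without DMSO replicate 2). Nrf1, the transcription factor of many respiratory chain genes, measured 8.40, 7.88, 7.78, 7.96 and 7.81 with BRD7116, against 8.22 and 8.66 with DMSO, and the groups overlapped through BRD7116 replicate 1 (log2 fold change -0.47 ± 0.23, SE). It was -0.25 without DMSO replicate 2 and -0.69 without DMSO replicate 1.

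Carriers, pores, ubiquinone synthesis and other entries of electrons held 17 measured genes, of which 10 had the higher mean and 7 the lower, with a median of 0.017. Dhodh, which feeds electrons from pyrimidine synthesis to ubiquinone, was not well above background in the controls. Vdac2, a pore of the outer membrane, had a log2 fold change of 0.82 ± 0.47 (SE) that was 0.11 without DMSO replicate 2. Among 7 genes of the defence against peroxide and superoxide 6 had the higher mean and 1 the lower (median 0.27). Gpx4, which reduces lipid peroxides, had 0.95 ± 0.34 (SE, unadjusted p 0.0254 from limma, adjusted p 0.658) and 0.36 without DMSO replicate 2. Glrx5, a factor of iron-sulfur cluster synthesis, had 0.44 ± 0.41 (SE) and -0.37 without that array.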

How the data were processed

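Per the labels, total RNA of 5 BRD7116 and 2 DMSO samples was labelled with biotin by in vitro transcription and hybridised to BeadChips. The deposited table gives, for every probe on every array, an intensity not normalized by the authors and a detection p-value, per the file headers. A second deposited table gives the authors' log2 values; from the values, they were quantile-normalized without background subtraction. Scanner software and normalization method are not given in the sources used here.

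Intensities were background-corrected with neqc (limma 3.58.1, R 4.3.3; offset 16, with negative controls derived from detection p-values), quantile-normalized and put on the log2 scale. Of 25697 probes, 8613 were detected (p under 0.05) on 2 arrays or more and entered the fit. The probe with the highest mean stood for each gene, which left 6969 features. BRD7116 and DMSO were compared with lmFit and eBayes (two-sided, Benjamini-Hochberg over all features, threshold 0.05). The fit was tested on simulated data. Only 7 arrays limit the precision. A probe below detection on every array of a group was set against a floor: its brighter group's mean over the higher of the lowest detected signal and the dim probe's own. That ratio makes no allowance for scatter between arrays and is no strict bound. Counts and medians of members are descriptions beside those of all features, with no test of a list. Log2 fold changes are BRD7116 minus DMSO.

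Members, lists, complexes and the rule for named genes were chosen with earlier results of these data known. The rule named, in each complex, the 3 measured genes of highest mean level and the 2 of smallest p, then genes with groups apart and an unadjusted p under 0.05, genes whose probes differ in sign, and the 2 of smallest p in each list. Samples of the same replicate number lay on different chips and were not treated as pairs. Alternatives covered the background correction, scaling, detection filter, probes per gene, variance prior, array weights, chip and replicate blocks, each array left out and chip 1 left out. Symbols came from the platform annotation (23978 probes) and promoters from RefSeq (GRCm38.p6).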

Additional observations from a re-analysis of the deposited data

Results flagged for a closer look

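Among 42 gene values examined for a single array standing apart from the other 4 treated arrays, 6 met Dixon's criterion, and chance alone gives about 1 in 20. BRD7116 replicate 1, on the dim chip 1, stood apart for 4 genes: Cox6b1 at 11.92 (other treated arrays 11.74 to 11.79), Ndufs6 at 11.49 (11.14 to 11.23), Nrf1 at 8.40 (7.78 to 7.96) and Vdac2 at 6.05 (7.13 to 7.40). The first 3 were high there and Vdac2 was low. BRD7116 replicate 4 stood apart for Sdhb at 6.32 (6.56 to 6.63), and BRD7116 replicate 5 for Uqcr10 at 11.68 (11.51 to 11.55). Both lay on chip 3.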

How the results depend on the processing

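No respiratory chain gene passed an adjusted p of 0.05 (limma) under the alternatives run, except 4 without DMSO replicate 1 (0 to 4 with each array left out). The count over all features was 1 with normexp, the authors' values, detection on all 7 arrays, no detection filter, chip as a random block, or chip 1 left out of the fit. It was 2 without background correction or with a trended robust prior, and 0 to 610 with each array left out. Over the 35 named genes, 50 values of the refitted alternatives changed sign. Differences within a single chip were judged by size and are not among these 50. Of them, 34 moved by more than the replicate SD, and some turned sign, such as Sdhc (-0.44 within chip 2). Another 710 values were counted as unchanged. They include single-chip values that turned sign but moved by less than that SD, such as Atp5b (0.063 within chip 1, -0.083 over all arrays).

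With median scaling, values relative to its shift of 0.54 were 0.29 for the median of the subunits, 0.29 for complex I, 0.29 for complex III, 0.41 for complex IV and 0.22 for complex V. Its unadjusted calls were 26 higher and 0 lower, against 235 and 258 in the analysis reported. Signs turned for Atp5b (0.23), Atp5g3 (0.21), Atp5j (0.19), Atp5j2 (0.16), Cox6a1 (0.22), Cox6b1 (0.040), Cyc1 (0.073), Dhodh (-0.11), Ndufc1 (0.016), Ndufs6 (0.038) and Uqcr10 (0.16). The authors' values gave medians of 0.049 for the subunits and 0.11 for complex IV. Detection on all 7 arrays gave -0.022 for complex V. No detection filter gave 0.017 for the subunits, 0.066 for complex IV and -0.022 for complex V. Complex V had 0.12 with every probe and 0.17 with the mean of a gene's probes, which turned Atp5j (0.22) and Cox6a1 (0.036).

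The replicate block and the chip block give the same fold changes by construction, though 18 and 900 features had an unadjusted p under 0.05 under them, against 493 in the analysis reported. They gave medians of -0.025 for complex I, -0.046 for complex III and 0.13 for complex IV and turned Atp5b (0.097), Atp5g3 (0.048), Cox6a1 (0.16), Ndufc1 (0.011) and Sdhc (-0.17). A random chip block gave -0.041 for complex III and turned Atp5b (0.037), Atp5g3 (0.028), Cox6a1 (0.098) and Sdhc (-0.062).

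Without chip 1, normalized anew, medians were 0.011 for the subunits, -0.015 for complex II, -0.042 for complex III, 0.062 for complex IV and -0.034 for complex V, with Atp5b (0.0080), Atp5j2 (0.037), Glrx5 (-0.24), Sdhc (-0.046) and Uqcr10 (0.011) turned. Normalized over 7 arrays, they were 0.010, -0.015, -0.042, 0.061 and -0.034 in that order, with Atp5b (0.0078), Atp5j2 (0.036), Glrx5 (-0.24), Sdhc (-0.045) and Uqcr10 (0.0094) turned. Within chip 1 the medians were 0.039 for the subunits, 0.80, -0.080, 0.041 and 0.10 for complexes II to V. Within chip 2 they were -0.029 for the subunits and -0.074, -0.17, -0.060, 0.089 and 0.0020 for complexes I to V.

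With each array left out in turn, medians ran between 0.015 and 0.10 for the subunits, -0.049 and 0.94 for complex II, -0.086 and 0.18 for complex III, 0.038 and 0.23 for complex IV, and -0.057 and 0.12 for complex V. Genes that turned ran between -0.27 and 0.087 (Atp5b), -0.036 and 0.026 (Atp5g3), -0.10 and 0.035 (Atp5j), -0.18 and 0.068 (Atp5j2), -0.098 and 0.038 (Cox6a1), -0.37 and 1.24 (Glrx5), -0.014 and 0.11 (Ndufb8), -0.35 and 0.012 (Ndufs6), -0.055 and 0.17 (Ndufv3), -0.13 and 0.42 (Sdhc), and -0.075 and 0.0080 (Uqcr10). The cause of these changes was not tested, beyond the fewer arrays or probes that some alternatives use. Chip 1 detected the fewest probes, and probes near background limit what it can show.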
